A study of Mus musculus with 12 samples.

Results

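The genes described here are 10 genes of the heparan sulfate co-receptor system of fibroblast growth factor (FGF) signalling, taken from a fixed list of gene symbols out of 35214 annotated genes, and all 10 were among the 12542 genes with enough reads to be tested. They are the 4 syndecans Sdc1, Sdc2, Sdc3 and Sdc4, the 3 glypicans Gpc1, Gpc4 and Gpc6, the extracellular sulfatases Sulf1 and Sulf2, and Ext1, which encodes a subunit of the enzyme that builds the heparan sulfate chain. Their mRNA was measured in Ocy454 cells, a mouse osteocyte-like line that grows at 33 °C and differentiates at 37 °C. After 5 days at 37 °C the cells received 200 nM BGJ398, a kinase inhibitor that acts on the FGF receptors, or its solvent DMSO for 1 h, and then medium with or without the growth factor FGF2 at 2 ng/mL for 48 h. The 4 groups of 3 libraries were BGJ398 with FGF2 (BGJ398+FGF2), DMSO with FGF2 (DMSO+FGF2), BGJ398 in control medium (BGJ398) and DMSO in control medium (DMSO), all harvested on differentiation day 7. All of them come from a single cell line grown on culture plastic.

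Heparan sulfate is a long sulfated sugar chain carried by a few core proteins. Syndecans span the membrane and glypicans are held on its outer face by a lipid anchor. FGF2 binds its receptor together with such a chain, and the sulfate groups at the 6-O position of glucosamine are part of what the receptor complex recognises. SULF1 and SULF2 are secreted or surface-bound enzymes that remove these 6-O-sulfate groups from finished chains, and are known in several tissues as inhibitors of FGF signalling. EXT1 forms the chain polymerase with EXT2, and inherited loss of either gene causes multiple osteochondromas, benign cartilage-capped tumours of growing bone.

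Depth was 18951710 to 27716975 estimated reads per library, and the 10 genes took between 428 reads (Sulf1) and 175511 reads (Sdc2) over the 12 libraries. Levels are given as CPM, counts scaled to library size with TMM factors, and are set side by side between genes only as TPM, which also divide by transcript length. The labels call the replicates only triplicates, so a p-value here reflects the scatter among the libraries, part of which may be technical. In 3 groups a library deviated from its group in the same way, namely BGJ398 replicate 1, DMSO+FGF2 replicate 2 and BGJ398+FGF2 replicate 2, a pattern that was seen in the data and held 22.7% of the variance within groups. Longer transcripts tended to be lower in these 3 libraries (Spearman's rho −0.565 across genes, which are not independent replicates, between a gene's weight in this pattern and its effective length), and the part of this in the results was not tested. Results that changed without these 3 libraries are given with both values. Of the 6 osteocyte markers, the late markers Sost and Mepe had 0 reads in all 12 libraries, Fgf23 had 6, Dmp1 26 and Phex 116, and the early marker Pdpn had 8195. The 9 osteoblast markers summed to 20580 to 22950 CPM in BGJ398+FGF2, 13180 to 15360 CPM in DMSO+FGF2, 20620 to 23710 CPM in BGJ398 and 19900 to 21040 CPM in DMSO. Most of this sum was Col1a1, Col1a2 and Sparc, which averaged 8836, 7495 and 2587 CPM over the 12 libraries. All 9 passed the test for FGF2 in DMSO, 8 lower and 1 higher, beside 13.4% of all genes tested. The osteocyte markers summed to 26.3 to 33.2 CPM in BGJ398+FGF2, 38.6 to 40.1 CPM in DMSO+FGF2, 28.1 to 29.6 CPM in BGJ398 and 25.8 to 29.5 CPM in DMSO, with Pdpn called higher for FGF2 in DMSO. The 5 chondrocyte markers summed to 18.8 to 24.0 CPM in BGJ398+FGF2, 25.0 to 26.9 CPM in DMSO+FGF2, 19.5 to 20.8 CPM in BGJ398 and 17.8 to 19.4 CPM in DMSO, with Sox9 called higher, Matn3 called lower, and Col2a1, Acan and Col9a1 at 109, 4 and 2 reads. The 5 macrophage markers summed to 3.65 to 5.44 CPM in BGJ398+FGF2, 5.71 to 7.19 CPM in DMSO+FGF2, 3.27 to 4.14 CPM in BGJ398 and 2.85 to 3.27 CPM in DMSO, with Cd68 called higher, Adgre1 at 0 reads and Ptprc at 2. Csf1r and Lyz2 had 103 and 249 reads. The median log2 fold change of the 3 macrophage markers tested for FGF2 in DMSO was −0.75, so those beside Cd68 were lower, though not called. The part of these markers in the results below was not tested, and in bulk RNA fewer cells of a type cannot be told apart from less RNA per cell.

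Sdc2 was the most abundant of the 10 transcripts per length in every group, at 415 ± 36 TPM in BGJ398+FGF2, 374 ± 22 TPM in DMSO+FGF2, 424 ± 15 TPM in BGJ398 and 386 ± 6.8 TPM in DMSO (SD, n = 3). Gpc1 came next, at 243 ± 11, 160 ± 1.8, 247 ± 5.2 and 208 ± 6.0 TPM in the same groups. After these the order was Sdc4, Sdc1, Gpc4, Sulf2, Ext1, Sdc3, Gpc6 and Sulf1, and it differed in 1 group: in DMSO+FGF2 Sulf2 at 51.0 ± 2.7 TPM and Gpc4 at 50.7 ± 3.5 TPM overlapped. Sdc3 and Gpc6 also overlapped in BGJ398+FGF2 and in BGJ398. All other neighbours in the order had libraries that did not overlap. Sulf1 was the rarest, at 0.462 ± 0.067 TPM in BGJ398+FGF2, 1.14 ± 0.12 TPM in DMSO+FGF2, 0.522 ± 0.14 TPM in BGJ398 and 0.578 ± 0.26 TPM in DMSO, so that Sulf2 was the main sulfatase transcript in all 12 libraries. Of the glypicans outside the list, Gpc2 and Gpc5 had 0 reads and Gpc3 had 16 reads over the 12 libraries.

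**Figure D1:**
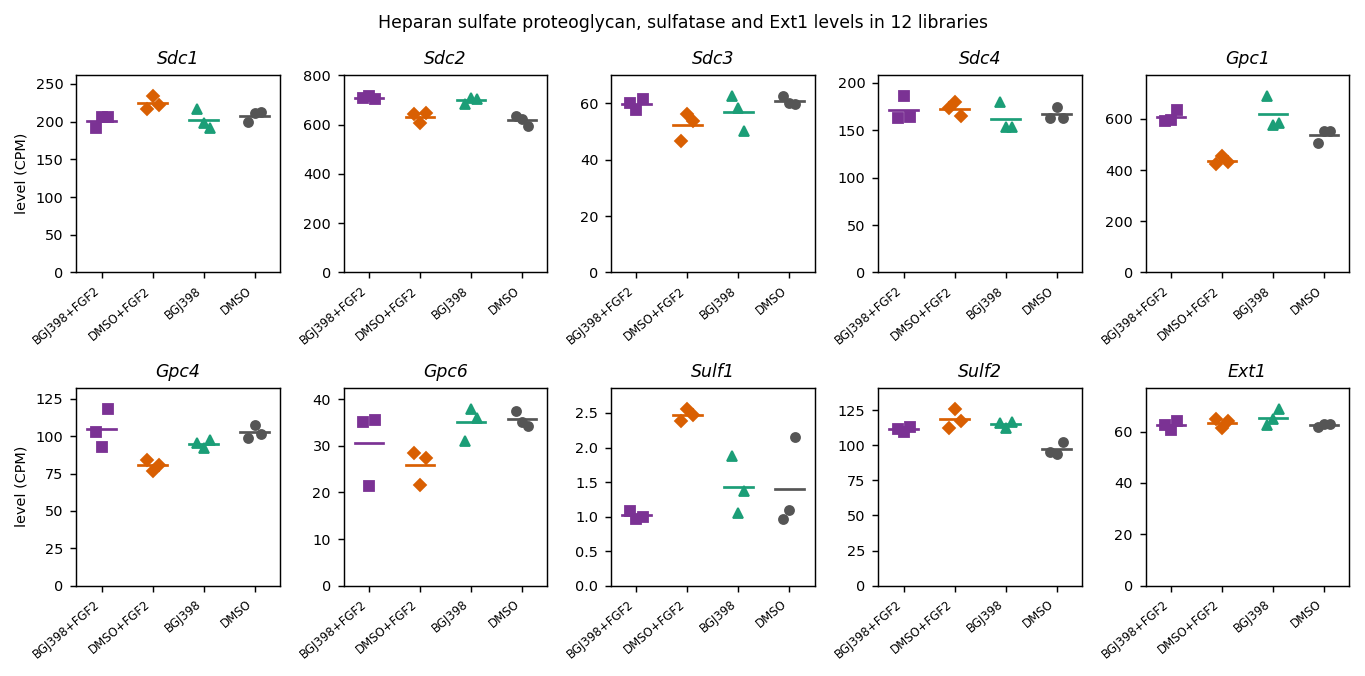
Levels of the 10 genes in CPM (y axis, from 0) for each library of the 4 groups (x axis, points), with the group mean as a bar. The 3 DMSO+FGF2 libraries lie below the other 9 for Gpc1 and Gpc4 and above them for Sulf1, and the 3 DMSO libraries lie below the other 9 for Sulf2.

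In CPM, Gpc1, Gpc4 and Sulf1 set the DMSO+FGF2 libraries apart from the other 9, and Sulf2 set the DMSO libraries apart. Sdc2 divided the libraries by inhibitor, with 683 to 717 CPM in the 6 libraries with BGJ398 and 596 to 645 CPM in the 6 without it. Sdc4 and Ext1 did neither, with 153 to 186 CPM and 60.7 to 68.8 CPM over all 12 libraries. In TPM the Sdc2 libraries overlapped, at 374 to 441 with BGJ398 and 348 to 390 without it. For Sulf2, BGJ398+FGF2 replicate 2 at 45.47 TPM lay below DMSO replicate 3 at 45.85 TPM. These divisions were read from the values, and the share of all genes divided likewise was not counted.

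The first comparison asked how FGF2 changed these genes while its receptors were free. The glypican Gpc1 fell by 18.5% and the glypican Gpc4 fell by 21.6%, while the sulfatase Sulf2 rose by 21.9%. The 4 syndecans and Ext1 did not pass the test. In edgeR's quasi-likelihood test 3 of the 10 genes had an adjusted p under 0.05, 1 higher and 2 lower, where 13.4% of all tested genes passed, 7.57% higher and 5.82% lower. The median log2 fold change of the 10 genes was 0.03, beside −0.004 over all genes tested.

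Gpc4, a lipid-anchored core protein encoded on chromosome X, had 84.0, 77.0 and 80.7 CPM in the DMSO+FGF2 libraries and 98.8, 108 and 102 CPM in the DMSO libraries. The groups did not overlap. Its log2 fold change was −0.35 ± 0.08 (SE; 95% interval −0.51 to −0.19; adjusted p = 0.00692), and it passed in all 20 other settings tried.

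Gpc1, the most abundant glypican transcript and a core protein known as a co-receptor of FGF2 in other cell types, had 424, 456 and 433 CPM in DMSO+FGF2 and 505, 551 and 554 CPM in DMSO. These groups did not overlap either, and the log2 fold change was −0.30 ± 0.07 (95% interval −0.45 to −0.14; adjusted p = 0.0128). The call was lost without DMSO+FGF2 replicate 1 (adjusted p = 0.0527), without DMSO replicate 2 (0.0588) and without DMSO replicate 3 (0.061), while the log2 fold change lay between −0.34 and −0.27 in all settings. Gpc1 shares 18.4% of its 31-base sequences with Ankmy1, a gene on the opposite strand, which had 63.6 reads over the 12 libraries beside 145204 for Gpc1.

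Gpc6, the least abundant of the 3 glypicans, had 28.5, 21.7 and 27.4 CPM in DMSO+FGF2 and 37.5, 35.2 and 34.2 CPM in DMSO. The groups did not overlap, but with a log2 fold change of −0.46 ± 0.16 it missed the threshold (adjusted p = 0.0735). It passed in 5 of the 20 other settings, among them the fit without BGJ398+FGF2 replicate 2 (−0.46, adjusted p = 0.00431), a library outside the comparison that enters the shared estimate of spread, and the fit without the 3 deviating libraries (−0.35, adjusted p = 0.00138).

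Sulf2 had 112, 126 and 117 CPM in DMSO+FGF2 and 95.1, 94.0 and 102 CPM in DMSO. All DMSO+FGF2 libraries were higher. The log2 fold change was 0.29 ± 0.05 (95% interval 0.17 to 0.40; adjusted p = 0.00293), and it passed in all 20 other settings. Sulf2 overlaps Ncoa3, a nuclear receptor coactivator gene on the opposite strand, over 154 exonic bases, and the log2 fold change of Ncoa3 was 0.07 (adjusted p = 0.593).

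Sulf1 was counted on 61, 60 and 52 reads in DMSO+FGF2 and 19, 30 and 55 reads in DMSO. Scaled to depth, all DMSO+FGF2 libraries were higher, with a mean of 2.47 ± 0.09 CPM in DMSO+FGF2 and 1.40 ± 0.65 CPM in DMSO. The log2 fold change of 0.81 ± 0.30 did not pass (adjusted p = 0.098), and limma-voom called it (0.0424). Without DMSO replicate 3, the DMSO library with the highest count, it was 1.26 (adjusted p = 0.0153). The ratio of Sulf2 to Sulf1 in TPM was 39.0 to 50.1 in DMSO+FGF2 and 53.0 to 117 in DMSO.

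Among the syndecans the widest difference was that of Sdc3, the syndecan best known from nerve and muscle, with 46.5, 56.4 and 53.6 CPM in DMSO+FGF2 and 62.5, 60.0 and 59.8 CPM in DMSO. Its log2 fold change of −0.22 ± 0.08 did not pass (adjusted p = 0.108), and passed without the 3 deviating libraries (−0.28, adjusted p = 0.01) and in a fit on these 2 groups alone (adjusted p = 0.046). Sdc1, an epithelial and plasma cell syndecan, averaged 224 ± 9.0 CPM in DMSO+FGF2 and 208 ± 7.1 CPM in DMSO, a log2 fold change of 0.11 ± 0.06 (adjusted p = 0.268). The log2 fold changes of Sdc2, Sdc4 and Ext1 were 0.03 ± 0.05, 0.05 ± 0.07 and 0.02 ± 0.05. Their 95% intervals, −0.07 to 0.13, −0.11 to 0.20 and −0.09 to 0.14, leave out changes as large as those of Gpc4 and Sulf2. Groups did not overlap for 7 of the 10 genes, the 3 called genes with Sdc1, Sdc3, Gpc6 and Sulf1, beside 37.6% of all genes tested.

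**Figure D2:**
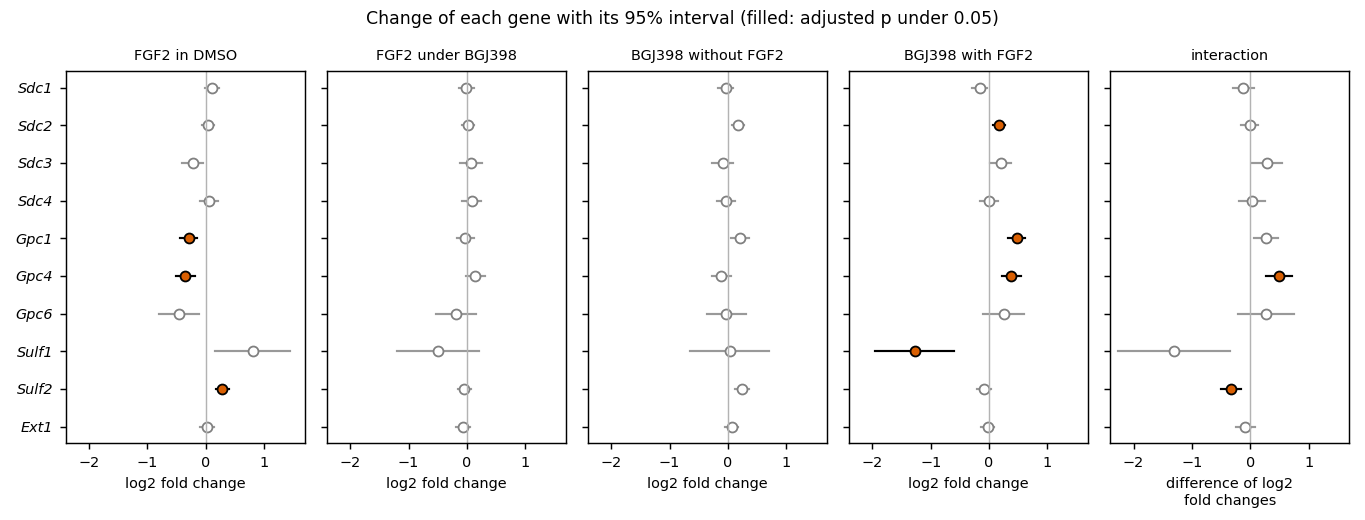
Log2 fold change of each gene (x axis) with its 95% interval, for the 4 comparisons and the interaction (panels), where filled points have an adjusted p under 0.05. Filled points are Gpc1, Gpc4 and Sulf2 for FGF2 in DMSO, none under BGJ398, none for BGJ398 without FGF2, Sdc2, Gpc1, Gpc4 and Sulf1 for BGJ398 with FGF2, and Gpc4 and Sulf2 for the interaction.

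Sulf2 is the called gene that rose. Of its 7 annotated transcripts, those with most of the reads begin at 2 start sites 398 bases apart on the minus strand of chromosome 2. The RefSeq promoter sequences (build GRCm38.p6) that end just before each start are shown because they lie upstream of the transcripts counted below for these 2 starts. They are chr2:166155684-166155933 before the upstream start and chr2:166155286-166155502 before the downstream start, written 5′ to 3′ along the transcribed strand, and 33 bases of the downstream window that lie in an exon are left out. Capitals mark the ETS core GGAA or its complement TTCC and the GC box GGGCGG or its complement CCGCCC.
Sulf2 upstream start: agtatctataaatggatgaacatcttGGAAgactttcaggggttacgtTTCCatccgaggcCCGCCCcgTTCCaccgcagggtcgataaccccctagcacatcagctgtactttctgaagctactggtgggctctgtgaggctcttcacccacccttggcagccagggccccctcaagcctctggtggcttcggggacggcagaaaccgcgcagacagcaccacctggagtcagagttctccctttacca
Sulf2 downstream start: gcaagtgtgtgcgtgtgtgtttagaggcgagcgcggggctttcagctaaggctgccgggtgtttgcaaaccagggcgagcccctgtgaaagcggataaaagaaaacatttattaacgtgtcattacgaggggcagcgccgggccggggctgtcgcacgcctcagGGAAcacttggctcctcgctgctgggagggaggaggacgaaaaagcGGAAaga
The upstream window held 3 ETS cores and 1 GC box, none overlapping another, and 1 TATAAA, left in lower case near its 5′ end. The downstream window held 2 ETS cores and 0 GC boxes. Among 32851 RefSeq promoter windows cut to the length of the upstream window, 93.4% held an ETS core, 32.7% a GC box and 12.4% TATAAA on either strand, so these matches describe the sequence and mark no site. For the downstream window's length the shares were 90.7%, 31.7% and 10.8%. The AP-1 motif TGANTCA, the cAMP response element TGACGTCA and the E-box CACGTG, also searched on both strands, had 0 matches in either window, beside 6.75%, 1.55% and 6.02% of windows of the upstream length and 5.87%, 1.51% and 5.53% of those of the downstream length.

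Split by start, the 2 transcripts of the upstream start had 26.8, 23.6 and 26.7 TPM in DMSO+FGF2 and 22.0, 22.3 and 20.1 TPM in DMSO. Those groups did not overlap. The transcript of the downstream start had 17.4 ± 3.0 TPM in DMSO+FGF2 and 15.8 ± 2.6 TPM in DMSO (SD, n = 3), and its groups overlapped. The upstream start gave 50.4 ± 2.1% of Sulf2 TPM in DMSO+FGF2 and 49.3 ± 4.8% in DMSO (SD, n = 3), so its share differed by less than the spread between libraries. Another 2 coding transcripts, which begin at neither start, had 3.42 to 10.4 TPM in DMSO+FGF2 and 4.70 to 5.69 TPM in DMSO. Their mean share of Sulf2 TPM was 14.3% in DMSO+FGF2 and 11.6% in DMSO, and their groups overlapped. The 2 transcripts that do not code for protein averaged 0.423 TPM in DMSO+FGF2 and 1.25 TPM in DMSO. These values are Salmon's division of reads between transcripts that share most of their sequence, and no test was made on them.

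**Figure D3:**
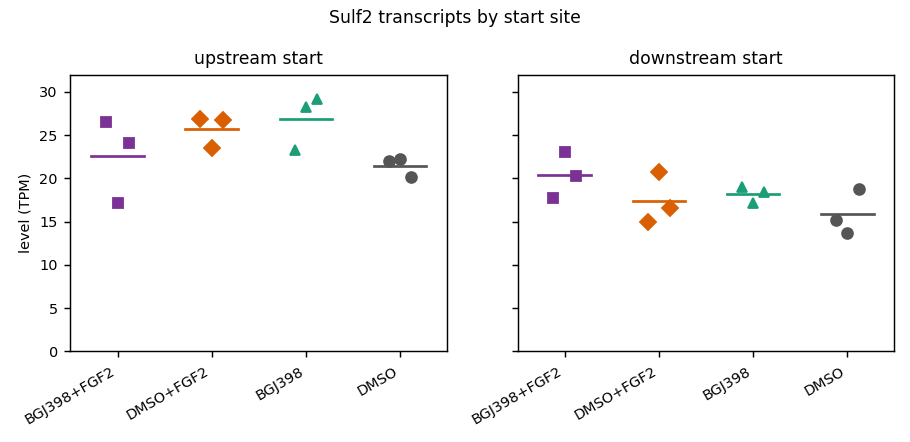
Summed TPM (y axis, from 0) of the Sulf2 transcripts at the upstream start (left) and the downstream start (right) for each library (points) of the 4 groups, with the group mean as a bar. At the upstream start the DMSO+FGF2 libraries, 23.6 to 26.8 TPM, lie above the DMSO libraries, 20.1 to 22.3 TPM, and at the downstream start the groups overlap.

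The second comparison asked whether FGF2 still changed these genes with its receptors inhibited. Under BGJ398 none of the 10 genes passed the test, and the groups overlapped for all 10, where 6.31% of all tested genes had groups that did not overlap. In edgeR's test 0 of the 10 genes passed and 0% of all tested genes did, although 325 genes had an unadjusted p under 0.05, none of them in the list, and DESeq2 called 5 genes and limma-voom 0, none in the list.

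Sulf2 had 111, 110 and 113 CPM in BGJ398+FGF2 and 116, 112 and 116 CPM in BGJ398, a log2 fold change of −0.04 ± 0.05 (95% interval −0.16 to 0.07). The 2 groups overlapped, and both lay above the DMSO libraries. Gpc4 had 103, 93.1 and 118 CPM in BGJ398+FGF2 and 95.6, 92.0 and 97.4 CPM in BGJ398, a log2 fold change of 0.14 ± 0.08 (95% interval −0.02 to 0.30). Gpc1 had 591, 594 and 635 CPM in BGJ398+FGF2 and 691, 577 and 584 CPM in BGJ398, a log2 fold change of −0.03 ± 0.07 (95% interval −0.18 to 0.13). Sulf1 had 24, 18 and 21 reads in BGJ398+FGF2 and 39, 21 and 28 reads in BGJ398, a log2 fold change of −0.50 ± 0.33 whose 95% interval ran from −1.20 to 0.21. The other 6 genes had log2 fold changes between −0.19 (Gpc6) and 0.08 (Sdc4), and the adjusted p was 1 for all 10.

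The difference between the FGF2 responses was tested as an interaction, which subtracts the FGF2 change in DMSO from the one under BGJ398. It passed for 2 of the 10 genes, 1 positive and 1 negative, beside 4.24% of all genes tested, 1.99% positive and 2.25% negative. Gpc4 had an interaction of 0.49 ± 0.11 (95% interval 0.26 to 0.72; adjusted p = 0.0181), and Sulf2 one of −0.33 ± 0.08 (95% interval −0.49 to −0.17; adjusted p = 0.0258). The call of Gpc4 was lost without BGJ398 replicate 2 (adjusted p = 0.0525) and without DMSO replicate 2 (0.0606). The call of Sulf2 was lost without BGJ398+FGF2 replicate 1 (0.0623), DMSO+FGF2 replicate 2 (0.0684), DMSO+FGF2 replicate 3 (0.0537), BGJ398 replicate 3 (0.0629), DMSO replicate 1 (0.0731) and DMSO replicate 2 (0.0878), and with counts made from length-scaled TPM (0.0746). Without BGJ398 replicate 2 it lay at the threshold (0.04996) and just under it.

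Gpc1 did not pass, at 0.27 ± 0.10 (adjusted p = 0.166), and passed without BGJ398 replicate 1, its highest library (0.36, adjusted p = 0.0291), and without the 3 deviating libraries (0.40, adjusted p = 0.00154). Sulf1 was at −1.30 ± 0.44 (adjusted p = 0.133), or −1.75 (adjusted p = 0.0307) without DMSO replicate 3. Sdc3 was at 0.29 ± 0.12 (adjusted p = 0.223), or 0.45 (adjusted p = 0.0153) without the 3 deviating libraries. The remaining 5 genes had interactions between −0.12 (Sdc1) and 0.27 (Gpc6) with adjusted p of at least 0.529.

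BGJ398, given before FGF2, was next set against DMSO in the groups with FGF2. Of the 10 genes 3, Gpc1, Gpc4 and Sdc2, were higher in BGJ398+FGF2 than in DMSO+FGF2, and Sulf1 was lower. Of all tested genes 22.2% passed, 10.8% higher and 11.4% lower. This comparison and that of FGF2 in DMSO share the DMSO+FGF2 libraries. Gpc1 averaged 607 ± 25 CPM in BGJ398+FGF2 and 437 ± 16 CPM in DMSO+FGF2, a log2 fold change of 0.47 ± 0.07 (adjusted p = 0.000395). Gpc4 averaged 105 ± 13 CPM in BGJ398+FGF2 and 80.6 ± 3.5 CPM in DMSO+FGF2, a log2 fold change of 0.38 ± 0.08 (adjusted p = 0.00308). Neither gene's groups overlapped, and both calls held in all 20 other settings.

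Sulf1 had 24, 18 and 21 reads in BGJ398+FGF2 and 61, 60 and 52 reads in DMSO+FGF2, or 1.02 ± 0.06 CPM in BGJ398+FGF2 and 2.47 ± 0.09 CPM in DMSO+FGF2. The groups did not overlap. The log2 fold change was −1.27 ± 0.31 (95% interval −1.95 to −0.60; adjusted p = 0.0109), 2.42-fold lower in BGJ398+FGF2, and it passed in all 20 other settings. Sulf2, the more abundant sulfatase, averaged 111 ± 1.6 CPM in BGJ398+FGF2 and 118 ± 6.7 CPM in DMSO+FGF2, and its log2 fold change of −0.09 ± 0.05 did not pass (adjusted p = 0.263).

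Sdc2, a syndecan of mesenchymal cells, had 707, 717 and 703 CPM in BGJ398+FGF2 and 643, 607 and 645 CPM in DMSO+FGF2. The groups did not overlap, and the log2 fold change was 0.17 ± 0.05 (adjusted p = 0.0217). The call was lost without BGJ398+FGF2 replicate 1 (adjusted p = 0.0555), without DMSO+FGF2 replicate 2 (0.085), with no filter on low counts (0.0724), in a fit on these groups alone (0.095) and with length-scaled TPM (0.127). In TPM the groups overlapped, at 374 to 441 in BGJ398+FGF2 and 348 to 387 in DMSO+FGF2.

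Sdc1 averaged 201 ± 8.7 CPM in BGJ398+FGF2 and 224 ± 9.0 CPM in DMSO+FGF2, a log2 fold change of −0.16 ± 0.06 that missed the threshold (adjusted p = 0.0701), and passed by DESeq2, without BGJ398 replicate 1 (adjusted p = 0.0417) and without the 3 deviating libraries (−0.15, adjusted p = 0.028). Sdc3 was at 0.20 ± 0.08 (adjusted p = 0.112), or 0.28 (adjusted p = 0.0122) without those 3 libraries. Gpc6 had 35.0, 21.3 and 35.5 CPM in BGJ398+FGF2 and 28.5, 21.7 and 27.4 CPM in DMSO+FGF2, with replicate 2 the low library of both groups. Its log2 fold change was 0.25 ± 0.16 (adjusted p = 0.301), or 0.45 (adjusted p = 0.00844) without BGJ398+FGF2 replicate 2 and 0.33 (adjusted p = 0.00288) without the 3 deviating libraries. Sdc4 and Ext1 were at −0.01 ± 0.07 and −0.02 ± 0.05.

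BGJ398 without added FGF2 was set against DMSO to ask what the inhibitor did in control medium. No gene of the list passed (0 of 10, beside 0.327% of all genes tested), 3 of them had an unadjusted p under 0.05, beside 1037 of the 12542 genes tested, and groups did not overlap for Sdc2, Gpc1, Gpc4 and Sulf2, beside 17.2% of all genes. Sulf2 came closest, with 116, 112 and 116 CPM in BGJ398 and 95.1, 94.0 and 102 CPM in DMSO. Its log2 fold change was 0.24 ± 0.05 (95% interval 0.12 to 0.36; adjusted p = 0.0977). DESeq2 called it (adjusted p = 0.0121), as did the fits without BGJ398+FGF2 replicate 2 (0.0484) and without the 3 deviating libraries (0.00759). Sdc2 had 683, 706 and 704 CPM in BGJ398 and 636, 621 and 596 CPM in DMSO, a log2 fold change of 0.18 ± 0.05 (adjusted p = 0.19) that DESeq2 (0.00584) and the fit without the 3 deviating libraries (0.00759) called. The main fit called 41 genes in this comparison and DESeq2 called 149. Without BGJ398+FGF2 replicate 2 there were 104 called genes, and without the 3 deviating libraries 730. Gpc1 was at 0.20 ± 0.07 (adjusted p = 0.389) and Gpc4 at −0.11 ± 0.08 (adjusted p = 0.794). Over the 4 groups Sulf2 averaged 111 ± 1.6 CPM in BGJ398+FGF2, 118 ± 6.7 CPM in DMSO+FGF2, 115 ± 2.0 CPM in BGJ398 and 97.2 ± 4.6 CPM in DMSO, so that DMSO was the group that stood apart in CPM. In TPM its libraries overlapped those of BGJ398+FGF2.

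Summed over the cell-surface core proteins, the transcripts of the 4 syndecans and 6 glypicans came to 1028 ± 73 TPM in BGJ398+FGF2, 880 ± 27 TPM in DMSO+FGF2, 1034 ± 9.5 TPM in BGJ398 and 968 ± 12 TPM in DMSO (SD, n = 3). Glypicans made up 31.6% to 32.5% of this sum in BGJ398+FGF2, 25.4% to 25.6% in DMSO+FGF2, 31.4% to 32.2% in BGJ398 and 30.5 ± 0.5% in DMSO (SD, n = 3). The DMSO+FGF2 libraries thus had a smaller glypican share than any other library. Their syndecan sum, 656 ± 21 TPM, overlapped that of DMSO, 673 ± 8.0 TPM, while their glypican sum was 224 ± 5.8 TPM beside 295 ± 7.4 TPM in DMSO. Sdc2 alone gave 39.1% to 43.2% of the sum in every library. The shares are a description with no test, and they count mRNA, not protein or sugar chains.

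**Figure D4:**
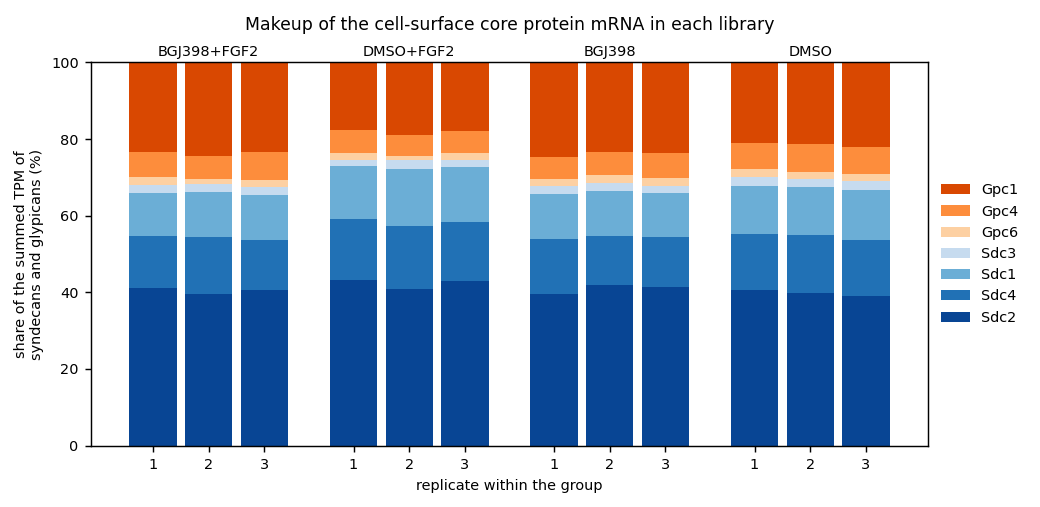
Share of each syndecan (blues) and glypican (oranges) in the summed TPM of the cell-surface core proteins (y axis, percent) for each library (bars, replicate number below) of the 4 groups. Glypicans take 25.4% to 25.6% in DMSO+FGF2 and at least 29.9% in the other libraries. Gpc2, Gpc3 and Gpc5, which were at or near 0, are not drawn.

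Around these genes, 60 others of heparan sulfate core proteins, linker, polymerization, modification, precursor supply, degradation, sulfatase activation and shedding were listed, of which 51 were tested. For FGF2 in DMSO 7 of the 51 passed, 5 higher and 2 lower, and their median log2 fold change was 0.001, beside 13.4% and −0.004 for all genes tested. Ugdh, the enzyme that makes the UDP-glucuronic acid from which glycosaminoglycan chains are built, rose to 171 ± 1.4 CPM in DMSO+FGF2, against 137 ± 2.4 CPM in DMSO (log2 fold change 0.32 ± 0.06, adjusted p = 0.00183), and passed in all 20 other settings.

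Of the 11 tested genes that modify the chain (15 were listed), 4 passed, 2 higher and 2 lower, and 7 did not, beside 13.4% of all genes tested that passed. Hs6st1 and Hs6st2, which add the 6-O-sulfate groups that the SULF enzymes remove, fell, with log2 fold changes of −0.23 ± 0.06 (adjusted p = 0.0248) and −0.26 ± 0.05 (adjusted p = 0.00507). Ndst2 and Ndst3, N-deacetylase/N-sulfotransferases that begin sulfation of the chain, rose by 0.28 ± 0.07 (adjusted p = 0.0139) and 1.03 ± 0.30 (adjusted p = 0.0371). Ndst3 was rare, at 3.39 CPM in DMSO+FGF2 and 1.66 CPM in DMSO, with 505 reads over the 12 libraries. Ndst2 had 47.4 CPM in DMSO+FGF2 and 39.1 CPM in DMSO. Ndst1, with 193 CPM in DMSO+FGF2 and 203 CPM in DMSO, was at −0.07 ± 0.07, and the epimerase Glce and the 2-O-sulfotransferase Hs2st1 were at 0.001 ± 0.08 and −0.07 ± 0.06. Hs6st2 kept its call without each library in turn and lost it with length-scaled TPM (adjusted p = 0.13). Ndst2 lost its call without DMSO+FGF2 replicate 3 and without DMSO replicate 2 (adjusted p 0.0534 to 0.0638). Hs6st1 lost it without any of DMSO+FGF2 replicates 2 and 3 and the 3 DMSO libraries (0.061 to 0.105), and Ndst3 without any of the 6 libraries compared (0.0595 to 0.115).

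Tgfbr3, the transmembrane proteoglycan betaglycan, rose by 0.27 ± 0.08 (adjusted p = 0.0302), and Gipc1, which binds the syndecan tail, by 0.29 ± 0.08 (adjusted p = 0.0359). Tgfbr3 lost its call without DMSO+FGF2 replicates 1 or 3 or DMSO replicates 2 or 3 (0.068 to 0.116), and Gipc1 without any of the 6 libraries (0.0582 to 0.152). The matrix core proteins perlecan, Hspg2, and agrin, Agrn, had −0.14 ± 0.15 and 0.05 ± 0.08. Of the other lists, 0 of 6 tested linker enzymes, 0 of 4 polymerization genes beside Ext1, 0 of 9 degradation genes and 0 of 2 sulfatase activators passed. Of all genes tested 13.4% passed, so lists this short would hold few calls at that share. Ext2, the partner of Ext1, was at −0.20 ± 0.06 (adjusted p = 0.052), and Sumf1, which activates SULF1 and SULF2 among all sulfatases, at −0.08 ± 0.05.

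Chondroitin sulfate is the other chain built on the same linker, and 3 of 13 tested genes of its synthesis passed, 2 higher and 1 lower, beside 13.4% of all genes tested, 7.57% higher and 5.82% lower. Chst11, the chondroitin 4-O-sulfotransferase best known from cartilage, had 61.0 to 66.4 CPM in DMSO+FGF2 and 34.8 to 39.8 CPM in DMSO, a log2 fold change of 0.77 ± 0.09 (adjusted p = 9.67e-05) that passed in all 20 other settings. Chst15 rose by 0.32 ± 0.08 (adjusted p = 0.0227), and the chain synthase Chsy1 was at −0.21 ± 0.06 (adjusted p = 0.0329). The call of Chst15 was lost without any 1 of 5 of the 6 libraries compared, DMSO+FGF2 replicate 1 being the exception (0.0616 to 0.0908), and that of Chsy1 without any of the 6 (0.0673 to 0.109).

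**Figure D5:**
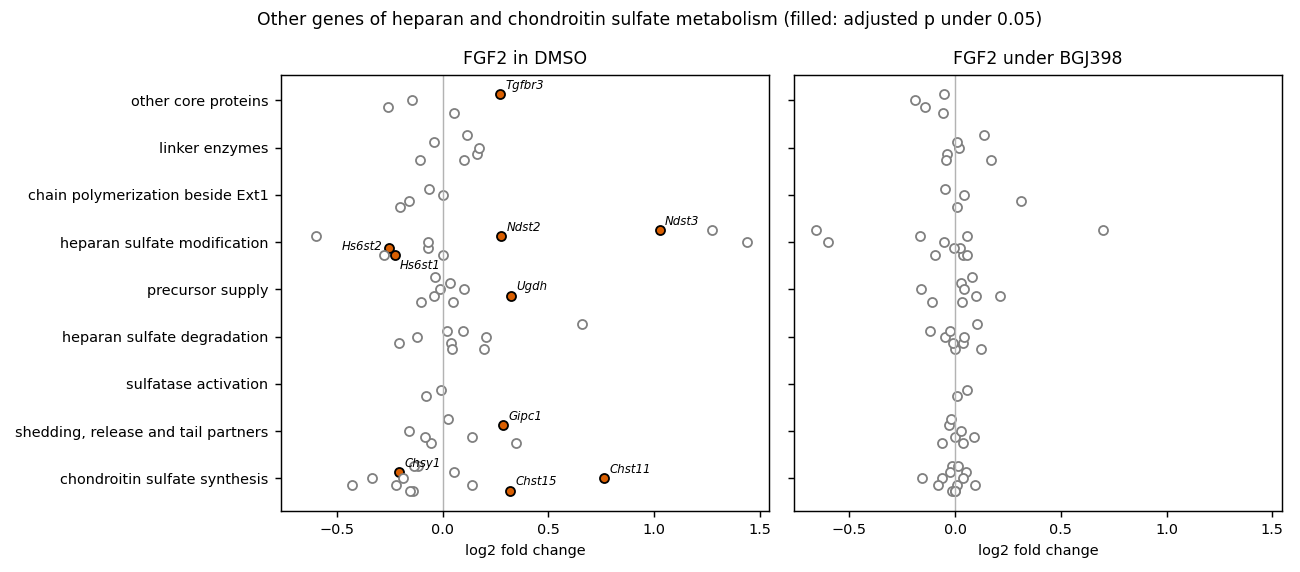
Log2 fold change (x axis) of each tested gene of heparan and chondroitin sulfate metabolism outside the 10 genes, by list (y axis), for FGF2 in DMSO (left) and under BGJ398 (right), where filled points have an adjusted p under 0.05. In DMSO 10 genes pass, with Ndst3 at 1.03 and Chst11 at 0.77, and under BGJ398 0 pass. Ndst3 is a rare transcript, with 505 reads over the 12 libraries.

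Under BGJ398 0 of the 51 heparan sulfate genes and 0 of the 13 chondroitin sulfate genes passed for FGF2, beside 0% of all genes tested, with medians of 0.01 and −0.003. In edgeR's test 2 of the 51 and 0 of the 13 had an unadjusted p under 0.05, beside 325 of the 12542 genes tested. The interaction passed for 1 of the 51, Ndst2 at −0.44 ± 0.10 (adjusted p = 0.0179), and for 1 of the 13, Chst11 at −0.83 ± 0.13 (adjusted p = 0.00257), beside 4.24% of all genes tested. The call of Ndst2 was lost without BGJ398+FGF2 replicate 1, DMSO+FGF2 replicate 3 or DMSO replicate 2 (0.0508 to 0.0581). For BGJ398 with FGF2 13 of the 51 passed, 5 higher and 8 lower, beside 22.2% of all genes tested. Among them Tgfbr3 was at −0.65 ± 0.08 (adjusted p = 6.63e-05), with 66.8 CPM in BGJ398+FGF2 and 105 CPM in DMSO+FGF2. Ndst2 was at −0.42 ± 0.07 (adjusted p = 0.000759). The rare Ndst3 was at −1.89 ± 0.32 (adjusted p = 0.00117), with 0.897 CPM in BGJ398+FGF2 and 3.39 CPM in DMSO+FGF2. The calls of Tgfbr3, Ndst2 and Ndst3 held without each library in turn. All 5 readouts of FGF receptor signalling, Dusp6, Spry2, Spry4, Etv4 and Etv5, were lower in BGJ398+FGF2 than in DMSO+FGF2, from −0.52 ± 0.13 (Spry2) to −1.25 ± 0.23 (Etv4), and 0 of 5 passed for FGF2 in DMSO. In control medium the BGJ398 libraries of all 5 also lay below the DMSO libraries, and 1 of 5 passed: Etv5 was at −0.68 ± 0.10 (adjusted p = 0.00951, or 0.0693 without BGJ398 replicate 3 and 0.0501 with length-scaled TPM), and the other 4 were between −0.33 ± 0.13 (Spry2) and −1.14 ± 0.37 (Spry4) with adjusted p of at least 0.249. Of all genes tested, 17.2% had groups that did not overlap and 0.327% passed. For Etv5, 30.3% of the 31-base stretches also occur outside the gene, in genes whose reads were not looked up. Whether this affected its counts was not tested. The call of Spry4 was lost without BGJ398+FGF2 replicate 1 or 2 or DMSO+FGF2 replicate 3 (0.0581 to 0.0934).

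Over the 12 libraries, the genes with the pattern most like that of Sulf2 were Leprotl1, Skap2 and Fam20a, among 10361 protein-coding genes averaging 5 CPM or more. Likeness was the root mean square difference of log2 CPM after each gene was centred on its own mean, which was 0.0586, 0.0621 and 0.0662 for these genes, beside 0.168 for the median gene and 0.118 for the spread of Sulf2 itself. Fam20a, which encodes a pseudokinase that activates the secretory kinase FAM20C, averaged 48.4 CPM in BGJ398+FGF2, 53.8 CPM in DMSO+FGF2, 51.0 CPM in BGJ398 and 42.5 CPM in DMSO. The genes most like Gpc4 were Alg13, Ppp1r15b and Mfsd14b, at 0.0582, 0.0607 and 0.0655, beside 0.201 for the median gene and 0.169 for Gpc4 itself. Alg13, a subunit of the enzyme that adds the second sugar of N-linked glycans, averaged 28.6, 22.1, 26.9 and 27.2 CPM in the same 4 groups. All these genes were read from the same libraries and share their depth and scaling.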

How the data were processed

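RNA was quantified per transcript with Salmon against build GRCm39, per the submitters' processing notes; the library type and use of strand were not found there, so overlapping genes on opposite strands cannot be told apart. The deposited values are expected counts and TPM, per the file headers. Both were summed per gene by transcript identifier with the GENCODE M21 annotation (114656 of 116178 transcripts matched; the other 1522 held 0.499% to 0.641% of the reads of a library and were left out), and expected counts were rounded. The members and gene lists were chosen with earlier results of these data known.

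edgeR 4.0.16 (R 4.3.3) tested 12542 genes kept by filterByExpr, with TMM factors, by quasi-likelihood in 1 model of the 4 groups with 8 residual degrees of freedom, 2-sided tests and Benjamini-Hochberg adjustment over all tested genes (threshold 0.05). CPM use TMM-scaled library sizes. The standard error is the absolute log2 fold change over the square root of F. The biological coefficient of variation was 8.49%. Genes beside the members were named as up to 4 called genes of each list with the smallest p, genes of the lists that did not pass, given with their values, and the 3 genes most like the called members with the highest and lowest FGF2 change. The procedure was tested on simulated counts. The 20 other settings used DESeq2 size factors, no count filter, DESeq2 1.42.0, limma-voom (limma 3.58.1), length-scaled TPM, only the groups compared, a replicate block, each library left out, and, added after the data were seen, the 3 deviating libraries left out together. No pair of libraries within a group agreed within counting noise, and none was taken as a duplicate. Promoter sequences came from RefSeq (GRCm38.p6), which matched 5 of the 10 genes.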

Additional observations from a re-analysis of the deposited data

Results flagged for a closer look

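The FGF2 change of 2 of the 10 genes differed between cells with and without BGJ398 by a test of the difference itself. That test passed for 4.24% of all genes tested. The interaction was −0.33 for Sulf2 (adjusted p = 0.0258 in edgeR's quasi-likelihood test), whose FGF2 change was −0.04 under BGJ398 and 0.29 in DMSO. It was 0.49 for Gpc4 (adjusted p = 0.0181), whose FGF2 change was 0.14 under BGJ398 and −0.35 in DMSO. In 3 of 3 DMSO+FGF2 libraries Sulf2 was above, and Gpc4 below, every DMSO library, whereas the BGJ398+FGF2 and BGJ398 libraries overlapped for both genes. Of all genes tested, 37.6% had groups that did not overlap for FGF2 in DMSO and 6.31% under BGJ398. The interaction of Sulf2 passed in 12 of the 19 other settings that had one, and that of Gpc4 in 17. Without FGF2, Sulf2 already averaged 115 CPM in BGJ398 and 97.2 CPM in DMSO. With FGF2 it averaged 111 CPM in BGJ398+FGF2 and 118 CPM in DMSO+FGF2.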

How the results depend on the processing

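Over the 20 other settings the 10 genes gave 990 values across the 5 comparisons, of which 949 kept their side of the threshold, 17 lost a call, 24 gained one and 0 called values reversed; 33 uncalled values changed sign. The count of called genes was 1680 for FGF2 in DMSO and moved to 2611 without the 3 deviating libraries and to 1018 to 2256 without each library in turn. For FGF2 under BGJ398 it was 0, and 6 with no filter, 5 by DESeq2, 1 on the groups compared alone, 4 without the 3 libraries and 0 to 1 without each library. For BGJ398 without FGF2 it was 41, and 83 with no filter, 149 by DESeq2, 12 with length-scaled TPM, 64 on the groups compared alone, 730 without the 3 libraries and 9 to 104 without each library. For BGJ398 with FGF2 it was 2782, and 1812 with length-scaled TPM and 1794 on the groups compared alone. It was 3691 there without the 3 libraries and 1948 to 3345 without each library. For the interaction it was 532, and 821 by DESeq2, 347 with length-scaled TPM, 1038 without the 3 libraries and 328 to 956 without each library. The cause was not tested. The fit on the groups compared alone has no counterpart for the interaction, which uses all libraries. In the lists beside the members, 41 calls gave 816 values, of which 119 lost the call and 0 reversed.

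Shared replicate numbers did not pair the libraries in general: over 18 such pairs the correlation of deviations ran from −0.146 to 0.239 and was over 0.1 in 2, the highest being BGJ398+FGF2 and DMSO+FGF2 replicate 2, both among the 3 deviating libraries. With the number as a replicate block, 1503, 0, 21, 2565 and 428 genes were called in the 5 comparisons in the order above, and no call among the 10 genes changed. Sulf1, with 18 to 61 reads per library, is the gene that depth limits most, and overlapping genes on the opposite strand could not be separated for Gpc1 and Sulf2. Sdc3 also overlaps genes on the opposite strand, over 415 and 48 exonic bases, which were not among the genes quantified. Their part in the Sdc3 values was not tested.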
